A study of Rattus norvegicus with 6 samples.

Results

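The cytokines described here are 9 members of the IL-6, IL-10 and IL-12 families, Il6, Il10, Il12a, Il12b, Il23a, Il27, Ebi3, Osm and Lif, which were chosen by gene name among 23139 genes listed for each library, and all 9 were found. They were measured by bulk mRNA sequencing of primary microglia from the cortex of Wistar rats at postnatal day 1, which were shaken off mixed glial cultures and sorted with CD11b/c beads. Both groups received 100 ng/mL lipopolysaccharide (LPS), a bacterial cell wall component that activates microglia. The LPS group was given the solvent DMSO, and the LPS/siponimod group 50 µM siponimod, a modulator of sphingosine-1-phosphate receptors, with 3 biological replicates each. No unstimulated cells and no cells with siponimod alone were analysed here, so that every value compares LPS/siponimod with LPS. How long the sequenced cells had been stimulated, and whether pups were pooled, is not given in the sources used here.

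Cytokines of these families are secreted proteins that act through pairs of receptor chains and the JAK kinases, which activate STAT transcription factors. IL-6, oncostatin M (Osm) and leukemia inhibitory factor (Lif) all signal through receptors that contain gp130, the product of Il6st, and lead mainly to STAT3. IL-10 also acts through STAT3, by way of Il10ra and Il10rb, and is a main brake on activated myeloid cells. Members of the IL-12 family are built of 2 chains. The chain encoded by Il12b joins that of Il12a to form IL-12 and that of Il23a to form IL-23, while the chain encoded by Ebi3 joins that of Il27 to form IL-27. LPS-stimulated microglia are a known source of IL-6, IL-10 and the Il12b chain.

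Many of these genes are switched on through sites close to their start, and the promoter of Il6 is shown because regulators that are known to bind such sites were measured in the same libraries. Promoters of 4 of the 9 members (Il6, Il12a, Il23a and Il27) were matched by symbol in RefSeq (build GRCr8), and those of Il10, Il12b, Ebi3, Osm and Lif were not. The sequence below runs 5′ to 3′ from 250 bases before to 50 bases after the start of Il6 at chr4:5894526-5894825 on the minus strand of GRCr8, a later build than the mRatBN7.2 genome to which the reads were mapped. Capitals mark, from left to right, a CRE motif, a C/EBP motif and a κB motif.
Il6: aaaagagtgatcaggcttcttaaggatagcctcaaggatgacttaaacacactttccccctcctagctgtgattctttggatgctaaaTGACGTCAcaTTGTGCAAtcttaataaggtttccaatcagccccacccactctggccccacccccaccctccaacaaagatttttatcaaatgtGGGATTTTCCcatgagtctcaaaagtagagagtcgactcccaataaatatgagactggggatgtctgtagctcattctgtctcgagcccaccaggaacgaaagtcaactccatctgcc
The CRE motif (TGACGTCA) began 162 bases before the start, the C/EBP motif (TTGNNCAA) 152 bases before it, and the κB motif (GGGA and TTCC with any 2 bases between them) 68 bases before it, and the 3 sites did not overlap. Searched on both strands, the CRE motif was present in 1.83% of the 33469 promoters of the same length, the C/EBP motif in 5.98% and the κB motif in 1.3%. An AP-1 motif (TGANTCA, in 7.33% of all promoters) and a STAT motif (TTCNNNGAA, in 8.87%) were searched as well. None of the 5 motifs was found in the promoters of Il12a, Il23a or Il27, and neither of the last 2 motifs in that of Il6. A match describes the letters and does not show that a factor binds there.

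The label of the cells was checked first, since LPS replicate 3 stood apart. All 12 microglial markers of a fixed list, such as Aif1, Itgam, Csf1r, P2ry12 and Tmem119, were detected and tested. Csf1r, the most abundant of the 12, had 113056, 90149 and 34614 reads with LPS, compared to 29533, 58416 and 20121 with LPS/siponimod. The summed level of the 12 genes was 9560, 7700 and 4960 counts scaled to a common library total (CPM) in LPS replicates 1, 2 and 3 and 3030, 4460 and 2290 CPM in LPS/siponimod replicates 1, 2 and 3. Aif1, Itgam and Cx3cr1 were called lower and none higher by the rule given below. With the replicate number in the fit, Csf1r, P2ry12, C1qa, C1qb and C1qc were called lower as well. In bulk samples, fewer cells of a type and less RNA per cell cannot be told apart. Markers of T and NK lymphocytes were almost absent, with no read of Cd3e, Cd3g or Nkg7, and Mpo and Elane of neutrophils also had no read. Of the 4 mast cell genes Kit alone had reads (22 at most), and the 4 dendritic cell genes, led by Zbtb46, summed to 3.97 CPM at most. The 3 endothelial genes analysed, led by Cdh5, summed to 154, 201 and 81.4 CPM with LPS, compared to 36.0, 77.8 and 24.2 CPM with LPS/siponimod, but Kdr had no read. Neither Pecam1 nor Cdh5 was called, whereas both were called lower with the replicate number in the fit (log2 FC -2.40 and -1.48, edgeR adjusted p = 0.00966 and 0.0142). Of 5 neutrophil genes, S100a8, the most abundant, fell, with sums from 2.29 to 3.31 CPM with LPS and from 0.516 to 0.694 CPM with LPS/siponimod.

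Replicate 3 of LPS held more RNA of oligodendrocyte-lineage and neuronal genes, and of some astrocyte genes, than the other LPS libraries. The 9 markers of the oligodendrocyte lineage, of which Mbp was the most abundant, summed to 5.37, 5.37 and 36.0 CPM in the LPS libraries and to 11.4, 10.3 and 22.6 CPM in the LPS/siponimod libraries. Olig1, a factor of this lineage, had 1, 5 and 515 reads with LPS, compared to 2, 3 and 17 with LPS/siponimod, and Mog and Mag, which mark mature oligodendrocytes, had at most 1 read in any library. The 6 neuronal markers, led by Tubb3, summed to 1.67, 1.04 and 11.3 CPM with LPS, compared to 6.39, 9.18 and 16.9 CPM with LPS/siponimod, and no gene of that list was without reads. The 7 astrocyte markers, led by Slc1a3, summed to 42.5, 21.0 and 21.6 CPM with LPS, compared to 27.5, 26.8 and 57.7 CPM with LPS/siponimod, none being without reads. Slc1a3 carried this sum, while Gfap had 1, 2 and 88 reads with LPS, compared to 0, 0 and 1 with LPS/siponimod, and Slc1a2 had 5, 3 and 82 against 4, 4 and 22. For 7 fibroblast and mural markers, led by Dcn, the sums were 6.04, 4.75 and 3.98 CPM against 11.9, 4.64 and 8.65 CPM, and Rgs5 had no read. Mbp, the neuronal gene Snap25 and Dcn were called higher with LPS/siponimod, and no other gene of these 4 lists was called without the replicate number in the fit. With it, Tubb3 was called higher too (log2 FC 1.59, edgeR adjusted p = 0.0316). The part of these other cells in the cytokine values below was not tested, and values without LPS replicate 3, or without both replicates 3, are given below where they change a call of a cytokine, receptor or regulator named here.

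**Figure D1:**
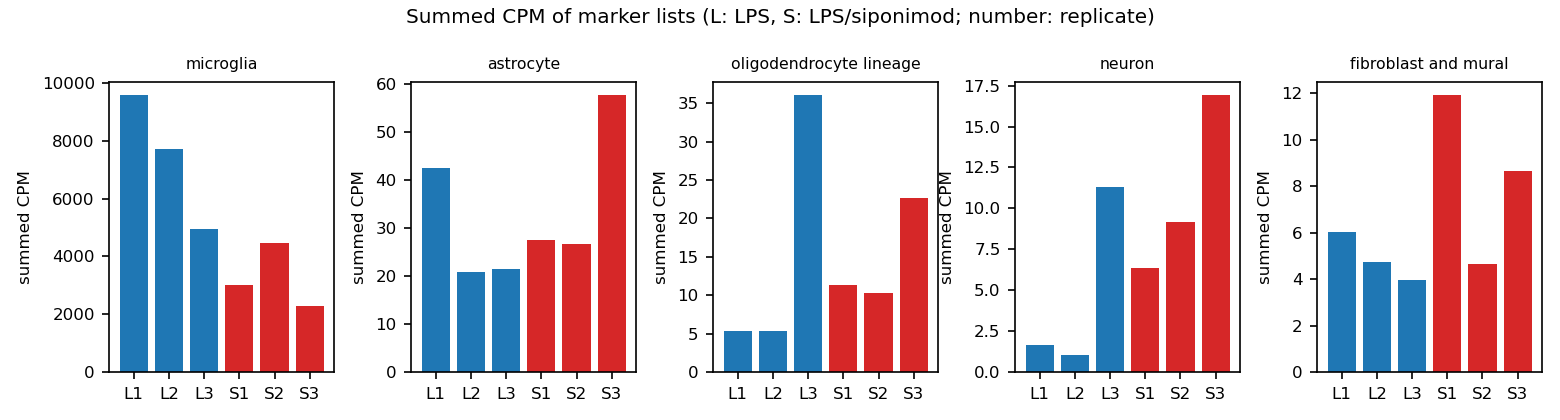
Summed CPM of 5 marker lists (vertical axes, each panel on its own scale from 0) in each library, with L for LPS, S for LPS/siponimod and the replicate number. The microglial sum is highest in LPS replicate 1 (9560 CPM), the oligodendrocyte-lineage sum in LPS replicate 3 (36.0 CPM) and the neuronal and astrocyte sums in LPS/siponimod replicate 3 (16.9 and 57.7 CPM).

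Total counts ranged from 38080379 to 46643859 per library, so that a single read was worth between 0.0215 and 0.027 CPM. Of the 9 members, 8 had enough reads to be tested and Il12a had not. Genes were called changed by edgeR's quasi-likelihood test at an adjusted p of at most 0.05 together with a fold change (FC) of at least 1.5. By this rule Osm was the only member called, and none was called lower. Over all 11977 genes tested, 25.3% were called, 13.6% as higher and 11.7% as lower with LPS/siponimod, so that the share among the 8 members (12.5%) lay under the background. The median log2 FC of the 8 was 1.0, beside -0.021 over all genes tested. With 3 libraries per group, exact permutation of the libraries for 1 gene gives no p under 0.1. Replicates with the same number deviated from their group means together, and values from a fit that also holds the replicate number (the replicate block) are given where they change a call. In that fit 3 members (Osm, Lif and Il12b) were called higher, against 17.7% of all genes tested (34% in either direction), and none lower (16.4% of all genes). Osm and Il23a were higher and Il10 was lower in every LPS/siponimod library than in any LPS library, which held for 49.3% of all genes tested. Within same-numbered pairs, 5 members were higher in all 3 (Il12b, Il23a, Ebi3, Osm and Lif) and 2 lower (Il10 and Il27), as were 35.4% of all genes in each direction.

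**Figure D2:**
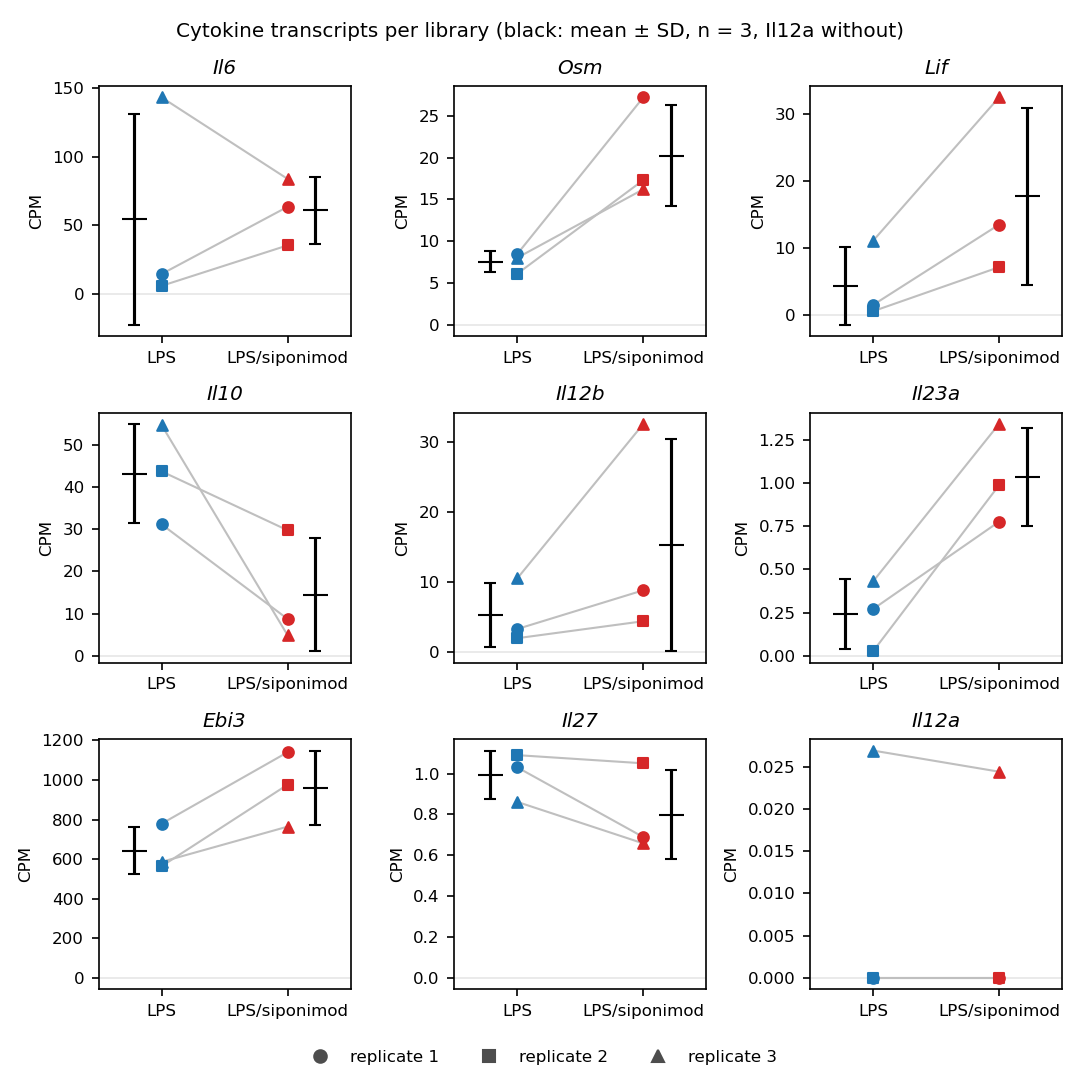
CPM of each of the 9 cytokine genes (vertical axes, linear and on their own scale) in the LPS (blue) and LPS/siponimod (red) libraries, where grey lines join libraries with the same replicate number and black bars give mean ± SD (n = 3), except for Il12a. Osm and Il23a are higher and Il10 is lower in all 3 LPS/siponimod libraries than in any LPS library, and Il6 is highest in LPS replicate 3.

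Among the cytokines that signal through gp130, Osm rose. Osm, which myeloid cells release after activation and which acts on glia and endothelium, had 314, 235 and 298 reads in the LPS libraries, against 1263, 774 and 664 reads in the LPS/siponimod libraries. The groups did not overlap, and the 3 LPS values lay close together. Its level increased from 7.53 ± 1.26 to 20.2 ± 6.04 CPM (n = 3 each, SD), a log2 FC of 1.43 (standard error, SE, 0.26; edgeR quasi-likelihood adjusted p = 0.0141). Within the same-numbered pairs it was 3.21, 2.84 and 2.02 times as high with LPS/siponimod. Without LPS replicate 2 the adjusted p was 0.0623 (log2 FC 1.31), and in each of the other 5 fits that left out a single library Osm was called.

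Lif, a cytokine of the same group that is known to support neurons and oligodendrocytes, varied far more between replicates. Reads of Lif were 56, 22 and 412 with LPS, compared to 628, 319 and 1332 with LPS/siponimod, or 1.51, 0.571 and 11.1 CPM against 13.5, 7.15 and 32.5 CPM. LPS replicate 3 lay above LPS/siponimod replicate 2, so that the groups overlapped, although every LPS/siponimod library was above its same-numbered LPS library by a factor of 8.94, 12.5 and 2.93. The log2 FC was 2.01 (SE 1.13) and was not called (edgeR adjusted p = 0.215). With the replicate block it was 2.69 (SE 0.45) and was called (edgeR adjusted p = 0.013), and without LPS replicate 3 it was 4.10 and was called as well (edgeR adjusted p = 0.0242). Without both replicates 3 it was 3.31 (edgeR adjusted p = 0.0374), and without LPS/siponimod replicate 3 it was 1.24 (edgeR adjusted p = 0.494). The genes of Osm and Lif are next to each other among the protein-coding genes of the RefSeq table for GRCr8.

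Il6, the namesake of the family and a classic product of LPS-stimulated microglia, showed no common direction. Its reads were 543, 235 and 5335 in the LPS libraries, against 2952, 1584 and 3441 in the LPS/siponimod libraries. In pairs 1 and 2 the level was 14.7 and 6.1 CPM with LPS, compared to 63.5 and 35.5 CPM with LPS/siponimod, or 4.34 and 5.82 times as high, whereas in pair 3 it was 143 CPM with LPS and 83.8 CPM with LPS/siponimod (0.584 times). The highest and the lowest Il6 levels of all 6 libraries were thus both found in the LPS group, and the largest LPS value was 23.5 times the smallest. Means were 54.7 ± 77 CPM with LPS as against 60.9 ± 24.3 CPM with LPS/siponimod (n = 3 each, SD), and the log2 FC was 0.15 (SE 1.10, edgeR quasi-likelihood adjusted p = 0.928). LPS replicate 3, which also had the largest sum of oligodendrocyte-lineage markers (36.0 CPM), decided this value, and without it the log2 FC became 2.56 (edgeR adjusted p = 0.0242). Without both replicates 3 the log2 FC was 2.26 (edgeR adjusted p = 0.05), and with the replicate block and all libraries it was 1.34 and not called (edgeR adjusted p = 0.206).

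**Figure D3:**
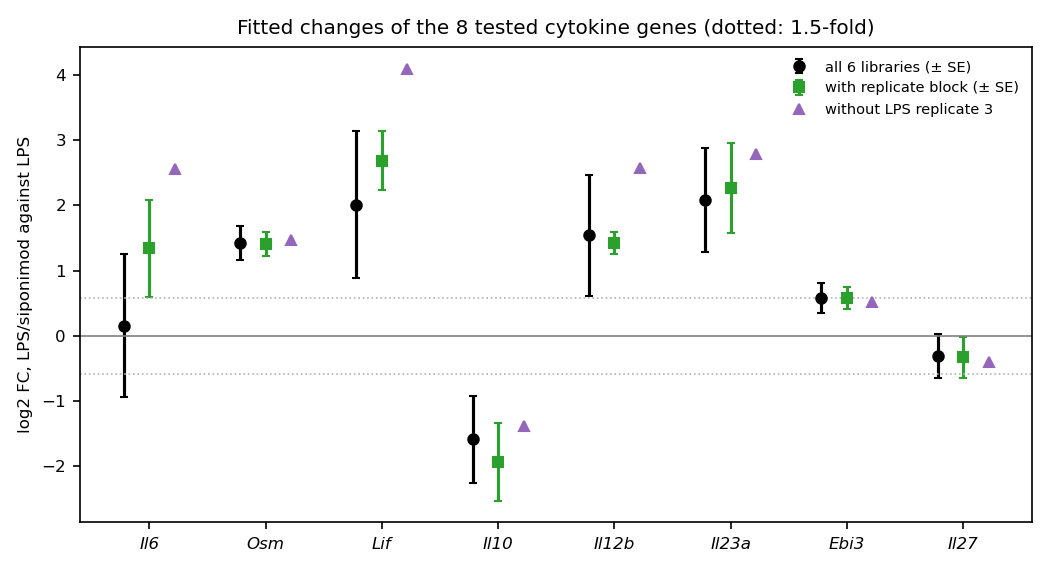
Log2 FC of LPS/siponimod against LPS (vertical axis) for the 8 tested cytokine genes, from the fit of all 6 libraries (black, ± SE), the replicate block fit (green, ± SE) and the fit without LPS replicate 3 (violet). Osm is at 1.43 with a small error, whereas Il6 moves from 0.15 to 2.56 and Lif from 2.01 to 4.10 without LPS replicate 3.

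Il10, the anti-inflammatory member, had a lower level in each LPS/siponimod library than in any LPS library, but the change was not called. Its reads were 1157, 1688 and 2038 with LPS, compared to 405, 1329 and 199 with LPS/siponimod. Though the groups did not overlap, LPS/siponimod replicate 2 (29.8 CPM) came close to LPS replicate 1 (31.2 CPM). Among all genes tested, 24% were lower without overlap in this way. Within pairs the level with LPS/siponimod was 0.279, 0.68 and 0.0885 times that with LPS. The mean was 43.3 ± 11.8 CPM with LPS as against 14.4 ± 13.4 CPM with LPS/siponimod (n = 3 each, SD), a log2 FC of -1.58 (SE 0.67) that was not called (edgeR adjusted p = 0.12). Without LPS/siponimod replicate 2 it was -2.67 and was called (edgeR adjusted p = 0.0132), and DESeq2 called it with all libraries (log2 FC -1.59, adjusted p = 0.0355). Without both replicates 3 it was -0.96 (edgeR adjusted p = 0.284). The marker sums of microglia, endothelium, neutrophils and B lymphocytes also had their highest LPS/siponimod value in replicate 2. For neutrophils it was 0.694 CPM, against 0.658 CPM in replicate 3. The sums of astrocytes, oligodendrocyte lineage, neurons, dendritic cells and mast cells were highest in LPS/siponimod replicate 3. Those of fibroblast and mural genes and of T and NK lymphocytes were highest in LPS/siponimod replicate 1. A link of these sums to Il10 was not tested. For B lymphocytes the sums were 16.1, 60.8 and 30.8 CPM with LPS, compared to 0.882, 22 and 0.999 CPM with LPS/siponimod. These were almost wholly Cd79b, which was called lower with the replicate block (edgeR adjusted p = 0.0266), while Ms4a1 had a single read and Cd79a at most 3 reads in a library.

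In the IL-12 family, reads were found for Il12b and Il23a but hardly for Il12a. Il12b had 120, 74 and 392 reads with LPS, compared to 408, 194 and 1337 with LPS/siponimod. The groups overlapped, because both replicates 3 were the highest of their group, while within pairs Il12b was 2.71, 2.26 and 3.09 times as high with LPS/siponimod. Its log2 FC was 1.54 (SE 0.93) and was not called (edgeR adjusted p = 0.244), whereas with the replicate block the log2 FC of 1.42 had a standard error of 0.16 and was called (edgeR adjusted p = 0.00692). Single libraries moved the value without the block, to 0.33 without LPS/siponimod replicate 3 and to 2.57 without LPS replicate 3 (edgeR adjusted p = 0.793 and 0.0899).

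Il23a, which encodes the chain particular to IL-23, had few reads, namely 10, 1 and 16 with LPS, compared to 36, 44 and 55 with LPS/siponimod. Every LPS/siponimod library was above every LPS library, as was the case for 25.3% of all genes tested. The level was 0.242 ± 0.204 CPM with LPS as against 1.03 ± 0.286 CPM with LPS/siponimod (n = 3 each, SD), with a log2 FC of 2.08 and a standard error of 0.80 that was not called (edgeR adjusted p = 0.0963). It was called by edgeR's likelihood ratio test (adjusted p = 0.0338) and by DESeq2 (adjusted p = 0.0452). At such low counts the size of the change is uncertain, and in pair 2 it rests on a single LPS read. Without LPS replicate 3 the log2 FC was 2.79 (edgeR adjusted p = 0.059).

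Il12a, which encodes the other chain of IL-12, had 1 read in LPS replicate 3, 1 read in LPS/siponimod replicate 3 and none in the other 4 libraries. A count of 0 allows a level of up to 0.0779 CPM in the LPS libraries without a read (0.0809 CPM in replicate 1) and of up to 0.0672 CPM in LPS/siponimod replicate 2 (0.0646 CPM in replicate 1), so that no difference between the groups was detectable at this depth. These limits cover counting error only.

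Neither Ebi3 nor Il27, the genes of the chains of IL-27, was called. Ebi3 had 28865, 21727 and 21807 reads with LPS, compared to 53175, 43558 and 31341 with LPS/siponimod. Its level was 643 ± 118 CPM with LPS as against 961 ± 191 CPM with LPS/siponimod (n = 3 each, SD), and LPS replicate 1 (779 CPM) lay just above LPS/siponimod replicate 3 (764 CPM). The log2 FC of 0.58 had a standard error of 0.22, and the 1.49-fold change missed both the threshold on fold and that on the adjusted p (edgeR adjusted p = 0.0978). Reads of Il27 were 38, 42 and 32 with LPS, compared to 32, 47 and 27 with LPS/siponimod. These groups overlapped, and the log2 FC was -0.31 (SE 0.34, edgeR adjusted p = 0.515).

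Ratios of 2 genes within a library do not depend on its depth, and 4 such ratios had enough reads. For Il6 over Il10, the log2 ratio of reads was -1.09, -2.84 and 1.39 with LPS, compared to 2.86, 0.25 and 4.11 with LPS/siponimod. It was higher with LPS/siponimod in each pair, by 3.96, 3.10 and 2.72, although the groups overlapped. The mean difference was 3.26 (exact two-sided permutation p = 0.2, adjusted over the 4 ratios p = 0.4), and it went from 2.26 without LPS replicate 2 to 4.38 without LPS replicate 3. In pair 3, where Il6 itself was at 0.584 times its LPS level, Il10 was at 0.0885 times.

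For Il27 over Ebi3 the log2 ratio was -9.55, -9.00 and -9.39 with LPS, compared to -10.68, -9.84 and -10.15 with LPS/siponimod. The groups did not overlap, and the difference of -0.91 had the smallest p that the design allows (exact two-sided permutation p = 0.1, adjusted p = 0.4). The log2 ratio of Il23a over Il12b differed by 1.18 between the group means, which came from pair 2 (3.51), since pairs 1 and 3 differed by 0.04 and -0.02 (exact permutation p = 0.3, adjusted p = 0.4). This difference ranged from 0.54 (LPS/siponimod replicate 2 left out) to 1.77 (LPS/siponimod replicate 3 left out). Osm over Lif differed by -1.37 and was lower in all 3 pairs, with overlapping groups (exact permutation p = 0.4, adjusted p = 0.4). This difference went from -0.58 without LPS replicate 2 to -2.51 without LPS replicate 3. The ratios of Il12a to Il12b and to Ebi3 were not tested for lack of Il12a reads.

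**Figure D4:**
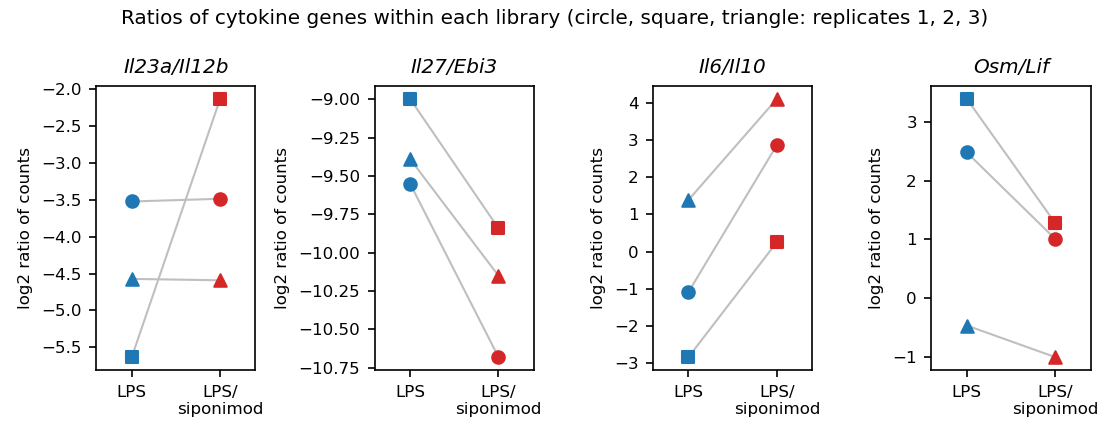
Log2 ratio of the reads of 2 cytokine genes within each library (vertical axes, each on its own scale) with LPS (blue) and LPS/siponimod (red), lines joining the same replicate number. The ratio of Il6 to Il10 is higher with LPS/siponimod in each pair (by 3.96, 3.10 and 2.72), and that of Il27 to Ebi3 is lower in each pair without overlap of the groups.

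Further ligands of the same families were sparse. Of 9 analysed, 2 were tested and 1 was called (50% beside 25.3% of all genes). Cntf, the ciliary neurotrophic factor, had 21, 14 and 29 reads with LPS, compared to 114, 65 and 172 with LPS/siponimod. It rose by a log2 FC of 2.24 (SE 0.52, edgeR adjusted p = 0.0256), with no overlap of the groups. The call was lost in 4 of the 6 fits without a single library (LPS replicates 1 and 2 and LPS/siponimod replicates 1 and 3), where the edgeR adjusted p reached 0.103. Il22, Il24 and Ifnl3 had no read in any library, and Il11, Ctf1, Il19 and Il20 had too few to be tested.

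Receptor chains for these cytokines went both ways. Of 17 analysed, 7 were tested, of which 1 rose and 2 fell, and their median log2 FC was -1.49 beside -0.021 over all genes. This share of 42.9% called stands beside the 25.3% of all genes. Il6r, the chain that binds IL-6, had 4082, 3223 and 6576 reads with LPS, compared to 658, 1790 and 871 with LPS/siponimod. Its level fell from 124 ± 48.0 to 25.2 ± 13.4 CPM (n = 3 each, SD) without overlap, with a log2 FC of -2.30 and a standard error of 0.46 (edgeR adjusted p = 0.0183). Il6st, the shared gp130 chain, rose from 27.9 ± 13.6 to 71.1 ± 23.0 CPM, with 696, 820 and 1619 reads against 3228, 2187 and 3893 (log2 FC 1.35, SE 0.40, edgeR adjusted p = 0.0478). Both chains of the IL-6 receptor were thus measured in every library, and they moved in opposite directions.

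Neither call held in every fit without a single library. That of Il6st was lost without the filter on low counts (adjusted p = 0.0549) and without LPS replicate 1 or 2 or without LPS/siponimod replicate 1 or 3 (edgeR adjusted p from 0.117 to 0.153), and that of Il6r without LPS replicate 2 or LPS/siponimod replicate 1 or 3 (from 0.052 to 0.0719) and without both replicates 3 (log2 FC -1.83, adjusted p = 0.0716).

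Of the IL-10 receptor chains, Il10ra fell. Il10ra, the chain that binds IL-10, had 7675, 7095 and 6576 reads with LPS, compared to 2227, 3654 and 1686 with LPS/siponimod, and fell from 189 ± 15.8 to 56.9 ± 21.8 CPM (n = 3 each, SD; log2 FC -1.73, SE 0.28, edgeR adjusted p = 0.0107). Il10rb, its partner, had 869, 811 and 646 reads against 1530, 1195 and 1171. Its groups did not overlap, but the log2 FC of 0.51 was under the threshold on fold (edgeR adjusted p = 0.0549). Without LPS replicate 2 the adjusted p of Il10ra was 0.0508, and it was 0.0577 without LPS/siponimod replicate 1.

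Receptors specific to the other members were low or variable. Osmr, the chain specific to oncostatin M, had 93, 82 and 111 reads with LPS, compared to 23, 23 and 70 with LPS/siponimod, giving a log2 FC of -1.49 that was not called (SE 0.56, edgeR adjusted p = 0.0907) but was with the replicate block (log2 FC -1.70, adjusted p = 0.0298) without LPS/siponimod replicate 3 (log2 FC -2.32, adjusted p = 0.034) and without both replicates 3 (log2 FC -2.19, adjusted p = 0.0334). DESeq2 and limma-voom called it with all libraries (adjusted p = 0.0396 and 0.0406). Lifr had 0, 0 and 17 reads with LPS, compared to 1, 1 and 12 with LPS/siponimod, so that almost all of its reads were in the 2 libraries with the number 3. Il12rb1, Il12rb2 and Il27ra had at most 6 reads in any library. Il23r had 92, 114 and 1297 reads with LPS, compared to 98, 169 and 212 with LPS/siponimod, and its log2 FC of -1.87 (edgeR adjusted p = 0.229) became 0.44 without LPS replicate 3.

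**Figure D5:**
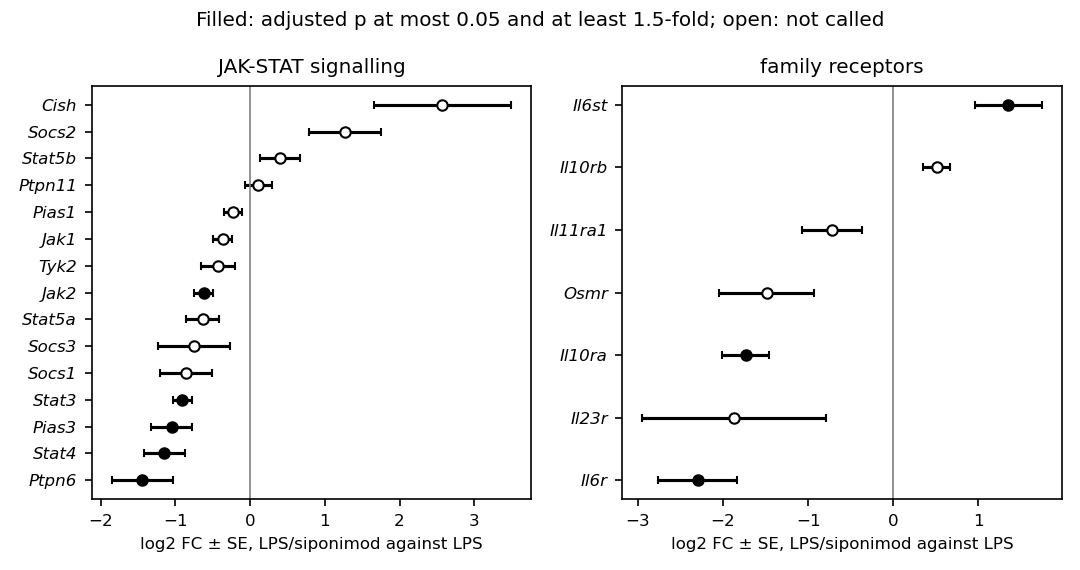
Log2 FC ± standard error (horizontal axes) of LPS/siponimod against LPS for the tested genes of JAK-STAT signalling and of the receptors of these families (vertical axes), where filled points were called and open points were not. Il6r and Il10ra are filled at -2.30 and -1.73, Il6st is filled at 1.35, and the 5 filled signalling genes are all below 0.

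Downstream of the receptors, 15 genes of JAK-STAT signalling were tested, of which 5 fell and none rose, or 33.3% beside 25.3% of all genes, with a median log2 FC of -0.62. Stat3, the main transcription factor behind IL-6 and IL-10, had 7816, 9185 and 8850 reads with LPS, compared to 5615, 5927 and 4618 with LPS/siponimod, and fell from 229 ± 15.8 to 122 ± 10.2 CPM (log2 FC -0.91, SE 0.13, edgeR adjusted p = 0.00834). It was called in each of the 6 fits without a single library. Stat4, which responds to IL-12 and IL-23, fell with a log2 FC of -1.15 (edgeR adjusted p = 0.0289) and the kinase gene Jak2 with -0.62 (edgeR adjusted p = 0.0205). Both of these calls were lost in 4 of the 6 fits without a single library, namely without LPS replicate 1 or 2 or LPS/siponimod replicate 1 or 3, and that of Jak2 also without both replicates 3 (adjusted p = 0.0687). The feedback inhibitor genes Cish (22, 11 and 104 reads against 435, 131 and 396, log2 FC 2.58) and Socs2 (19, 18 and 42 against 67, 57 and 98, log2 FC 1.27) were above 0 without a call (edgeR adjusted p = 0.0805 and 0.0933), and were called with the replicate block (adjusted p = 0.013 and 0.024). Without LPS replicate 3 both were called (log2 FC 4.06 and 1.80, adjusted p = 0.0176 and 0.0321), and without both replicates 3 Cish was (log2 FC 3.81, adjusted p = 0.0408). Cish was also called by the likelihood ratio test and DESeq2 (adjusted p = 0.0219 and 0.00997). Stat5b had a log2 FC of 0.40 (edgeR adjusted p = 0.292). Socs3, the main inhibitor of gp130 signalling, had 6108, 4865 and 16897 reads with LPS, compared to 6524, 5984 and 6942 with LPS/siponimod, so that its highest value was, as for Il6, that of LPS replicate 3. Its log2 FC of -0.75 (edgeR adjusted p = 0.276) became 0.027 without that library. With the block, 7 genes of the list were called lower and 2 higher, beside 16.4% and 17.7% of all genes tested.

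Genes that are known to respond to IL-10 or STAT3 moved in both directions. Of 16 tested, 4 rose and 2 fell (37.5% beside 25.3%), and the median log2 FC was -0.34. The kinase gene Pim1 (43.5 ± 11.3 to 119 ± 20.9 CPM, log2 FC 1.45, edgeR adjusted p = 0.0106), the repressor gene Nfil3 (log2 FC 1.34, adjusted p = 0.0142) and Il1rn (log2 FC 4.28, adjusted p = 0.0112) rose. Bcl3, a nuclear member of the IκB family, fell from 87.5 ± 3.91 to 28.6 ± 13.4 CPM (log2 FC -1.61, edgeR adjusted p = 0.0189), as did the protease inhibitor gene Slpi (log2 FC -1.45, adjusted p = 0.0464). Cebpd had a log2 FC of -1.16 (edgeR adjusted p = 0.051) and was called with the block (adjusted p = 0.0262) and without LPS/siponimod replicate 2 (adjusted p = 0.00607). With all libraries it was also called by the likelihood ratio test (adjusted p = 0.00978), DESeq2 (0.00704), limma-voom (0.0355) and with RLE factors (0.0488). Pim1 was called in each of the 6 fits without a single library. The call of Il1rn was lost without LPS replicate 2 (adjusted p = 0.0598), that of Nfil3 without LPS/siponimod replicate 1 or 3 (0.0551 and 0.0517), and that of Slpi in all fits but that without LPS/siponimod replicate 3 (0.0784 to 0.134) and without the filter on low counts (0.0514). Without LPS/siponimod replicate 3 the log2 FC of Slpi was -2.07 (adjusted p = 0.0184). Without both replicates 3 the call of Nfil3 was lost (0.0584).

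Among 27 transcription factors and cofactors that are known to act on these cytokine genes, 10 rose and 4 fell, which is 51.9% of those tested beside 25.3% of all genes. Of the 5 NF-κB subunits, which bind κB motifs, Rela rose from 68.2 ± 4.63 to 119 ± 8.53 CPM (n = 3 each, SD; log2 FC 0.80, SE 0.12, edgeR adjusted p = 0.00886). Rel rose with a log2 FC of 1.06 (adjusted p = 0.038), Nfkb2 fell with -0.66 (adjusted p = 0.0301), and Nfkb1 (-0.25) and Relb (-0.13) were not called (adjusted p = 0.358 and 0.673). Of the C/EBP factors, Cebpb rose with a log2 FC of 0.95 (adjusted p = 0.0321), while Cebpd is given above with a log2 FC of -1.16. Of the factors that bind CRE motifs, Crem rose with a log2 FC of 1.17 (adjusted p = 0.0413), and Creb1 (-0.24) and Atf3 (0.62) were not called (adjusted p = 0.271 and 0.236). Rel, Nfkb1, Relb, Cebpb, Crem, Creb1 and Atf3 were named after their values were seen. Jun, a subunit of AP-1, rose from 102 ± 24.0 to 365 ± 40.8 CPM (log2 FC 1.83, edgeR adjusted p = 0.00655). Bhlhe40, which is known as a repressor of Il10, had 238, 63 and 104 reads with LPS, compared to 6768, 3102 and 4233 with LPS/siponimod (log2 FC 4.87, SE 0.60, edgeR adjusted p = 0.00703). Maf, a known activator of Il10, fell from 330 ± 112 to 111 ± 47.4 CPM (log2 FC -1.58, edgeR adjusted p = 0.0278), as did Bcl3. Crem kept its call only without LPS/siponimod replicate 2 among the 6 fits without a single library, and lost it without the filter on low counts (adjusted p = 0.0515) and without both replicates 3 (adjusted p = 0.118). Rel kept its call only without LPS replicate 3 among those 6 fits. The calls of Maf, Nfkb2, Bcl3 and Cebpb were lost in 4 of the 6 fits without a single library, without LPS replicate 1 or 2 or LPS/siponimod replicate 1 or 3, and also without both replicates 3 (adjusted p from 0.0725 to 0.118). The rise of Bhlhe40 and Jun was called in all 6, with a log2 FC of 5.60 for Bhlhe40 without LPS replicate 1, and that of Rela in all but the fit without LPS replicate 2 (adjusted p = 0.0508).

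Of 17 genes whose products control the stability or translation of cytokine mRNA, 2 rose and 2 fell, or 23.5% beside 25.3% of all genes. Rc3h1, which encodes roquin-1, an RNA-binding protein that promotes decay, rose from 29.2 ± 3.44 to 76.0 ± 18.6 CPM (log2 FC 1.38, edgeR adjusted p = 0.00994), and Zc3h12c rose with a log2 FC of 0.77 (adjusted p = 0.0404). Arid5a, which is known to stabilise Il6 mRNA, fell from 48.6 ± 15.8 to 22.3 ± 5.95 CPM (log2 FC -1.12, edgeR adjusted p = 0.0424), and Mapk14, which encodes the kinase p38α, fell with a log2 FC of -1.24 (adjusted p = 0.0312). Khsrp passed on p but not on fold (log2 FC 0.50, edgeR adjusted p = 0.0312). Zc3h12d had 273, 608 and 89 reads with LPS, compared to 2, 59 and 8 with LPS/siponimod, giving a log2 FC of -4.02 that was not called (edgeR adjusted p = 0.0558) and was with the block (adjusted p = 0.0116), without LPS replicate 3 (log2 FC -4.47, adjusted p = 0.0382) and without LPS/siponimod replicate 2 (log2 FC -6.16, adjusted p = 0.0245). It was called by the likelihood ratio test and DESeq2 as well (adjusted p = 0.00737 and 0.00118). Zc3h12c and Arid5a lost their calls in 5 of the 6 fits without a single library, all except that without LPS replicate 1 for Zc3h12c and that without LPS replicate 3 for Arid5a, and Mapk14 in 4. Without the filter on low counts Zc3h12c and Arid5a were not called (adjusted p = 0.0546 and 0.0563). Rc3h1 lost its call only without LPS replicate 2 (adjusted p = 0.0532), and without both replicates 3 that of Zc3h12c was lost (adjusted p = 0.11).

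The genes most like a member over the 6 libraries were sought among 10824 others with a mean of at least 1 CPM. For Osm these were Cop1, a gene named in the files only by its Ensembl identifier, and Atxn7l3, with Pearson correlations of 0.9983, 0.9977 and 0.9974 of log2 CPM over 6 libraries, and 422 genes were above 0.95. For Ebi3, the member with the most reads, they were Tmem161a, Pusl1 and AC115277.1 (0.9888, 0.9888 and 0.9843), with 48 genes above 0.95. With 6 libraries in 2 groups, such values are frequent and describe these libraries only.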

How the data were processed

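Values were the deposited total counts of reads per gene, made by the authors from 6 libraries of polyadenylated RNA (single reads), which they demultiplexed with bcl2fastq 2.20.0.422 (per the labels), trimmed, mapped to the rat genome mRatBN7.2 and counted in CLC Genomics Workbench. How multi-mapping, strand and introns were handled is not given in the sources used here, so that reads of overlapping genes cannot be told apart. A row without a gene name in 1 library held 0 counts and was left out. Total counts per library lay between 38080379 and 46643859, and intervals and floors (3 counts) cover counting error only.

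From the counts, 11977 of 23139 genes passed filterByExpr (minimum count 10, minimum total 15), TMM factors were computed, and LPS/siponimod was compared with LPS by edgeR's quasi-likelihood test (edgeR 4.0.16, R 4.3.3) with Benjamini-Hochberg adjustment over all genes tested. Genes were called at an adjusted p up to 0.05 where the fold change reached 1.5. The fit was also run on simulated counts in which 200 genes were changed. These counts held no shared deviation of same-numbered libraries, so that this run does not cover that feature of the data. CPM used TMM-scaled totals, SDs are over 3 libraries, and likeness used log2 CPM with a prior count of 2. Ratios of genes (counts plus 0.5) were compared by exact two-sided permutation tests.

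Groups were those of the labels. Same-numbered libraries deviated together (correlation of deviations from the group means 0.42, 0.545 and 0.611, against -0.534 to 0.0856 for differently numbered ones), so the numbers were taken to pair the libraries. This rests on the values, since no source states it. The main fit and the exact permutation tests did not use the pairing, which entered the replicate block and the values within pairs. The p-values measure the spread between these libraries.

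The text names all members, the receptor subunits of the members, and from the other lists at most 3 genes per direction, those of lowest adjusted p. It also names the 3 genes most like the called member of the smallest p and like the most abundant member. Socs3, the factors grouped by motif, the sparse further ligands and the marker genes named singly were chosen after their values were seen. Some genes of the rule and of the marker lists are not reported here by name. Members and lists were chosen with earlier results of these data known. Alternatives were the likelihood ratio test, DESeq2 1.42.0, limma-voom (limma 3.58.1), RLE factors, other filters on low counts, the replicate block and leaving out each library. Leaving out both replicates 3 was chosen after seeing the data.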

Additional observations from a re-analysis of the deposited data

How the results depend on the processing

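With the replicate block, 3 members were called higher, and with the block and no filter on low counts 4 higher (Osm, Il12b, Lif and Il23a) and 1 lower (Il10). Of the 17057 genes tested with the block and no filter, 4305 (25.2%) were called, 2208 (12.9%) as higher and 2097 as lower. For the lists, the block called 2 further ligands, 5 receptors and 9 JAK-STAT genes, and without the filter 2, 6 and 9. Among the genes named by rule and reported here the block added calls for Il12b, Lif, Osmr, Cish, Socs2, Cebpd and Zc3h12d and changed no other call. The likelihood ratio test called 2 members higher, and DESeq2 2 higher and 1 lower, and both called 2 further ligands. Without the filter and without the block, 2 genes of mRNA stability were called. Over all genes, 3570 were called by the likelihood ratio test, 3898 by DESeq2, 4074 with the block and 2542 without the filter, beside 3036.

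Leaving out 1 library each gave 0 to 3 members called higher, 0 to 1 lower, 0 to 1 further ligands, 0 to 3 receptors, 1 to 7 JAK-STAT genes, 2 to 7 response genes, 4 to 15 transcription regulators and 0 to 5 genes of mRNA stability, while calls over all genes went from 651 (without LPS replicate 2) to 3713 (without LPS replicate 3). In these fits the group with a missing library has 2 samples. Without both replicates 3, 3 members were called higher and 9 transcription regulators were called. In that fit 2318 of 12032 genes tested were called (19.3%), 11.1% as higher. The log2 FC of Il6 turned to -0.26 without LPS replicate 1, -0.34 without LPS replicate 2 and -0.14 without LPS/siponimod replicate 3, in a range from -0.34 to 2.56, and that of Il23r, in a range from -2.33 to 0.44, to 0.44 without LPS replicate 3 and 0.12 without both replicates 3. That of Socs3 turned to 0.027 without LPS replicate 3 (range -1.04 to 0.027), that of Nfkb1 to 0.0059 without both replicates 3 and that of Relb to 0.14 without LPS replicate 1 (range -0.25 to 0.14). Beyond the fewer libraries, the cause was not tested. The mean differences of the 4 ratios tested kept their sign with 1 or nothing added to the counts and without each library in turn, though their size moved. In the single pairs, Il23a over Il12b had the opposite sign in pair 3 (-0.02). Depth limits Il12a, Il23a, Il27 and most receptors of the IL-12 family.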
